A study of Homo sapiens with 6 samples.

Results

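Epithelial kallikreins are secreted serine proteases, and the 7 followed here, KLK5, KLK6, KLK7, KLK8, KLK10, KLK11 and KLK13, were taken by symbol from the 20812 genes counted in each library. Kallikreins are made as inactive precursors, cut to the active form by other proteases, often by one another, and held in check by inhibitors such as the SPINK5 product. In skin they break the desmosomes that hold cornified cells together. The mammary gland also makes several of them, and their mRNA levels are known to differ between normal and tumour breast cells.

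The study asked which transcripts change when GIRK1, the potassium channel subunit encoded by KCNJ3, is overexpressed in MCF10A, an established benign mammary epithelial cell line. Of the 6 libraries, 2 came from untransfected parental cells (WT), 2 from cells stably carrying a plasmid for eGFP (eGFP) and 2 from cells stably carrying the same plasmid with human GIRK1 ahead of eGFP (GIRK1). Both transfected lines therefore express eGFP and went through transfection, antibiotic selection and fluorescence sorting, which the WT cells did not. The series' design text mentions 2 overexpressing and 2 control lines, and nothing in the labels ties a library to one of them or says that the replicates were separate cultures, so p-values measure only the spread between these libraries. The libraries held 2506120 and 16040556 reads (WT replicates 1 and 2), 5126930 and 10233974 (eGFP) and 11107309 and 10346572 (GIRK1). Levels are given as RPM, the reads on 1 short amplicon per gene for every 1000000 reads of its library. A count of 0 allows up to 3 reads, which is 1.20 RPM in WT replicate 1, the shallowest library, and 0.187 to 0.585 RPM in the others. KCNJ3 was at 216.79 and 355.38 RPM in the GIRK1 libraries, at 0 reads in both eGFP libraries and in WT replicate 2, and at 19.15 RPM in WT replicate 1.

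WT replicate 1 went against its label. KRT14 and KRT17, keratins of basal cells, had 0 reads there, against 305.80 to 591.97 RPM for KRT14 and 852.75 to 4512.90 RPM for KRT17 in the other 5 libraries. KRT5, the keratin partner of KRT14, was at 0.798 RPM against 3861.84 to 10660.18 RPM. The 9 basal markers summed to 395 RPM in WT replicate 1 and to 8845 RPM or more in every other library, while the 11 luminal markers summed to 19220 RPM there and to 531.1 to 1029 RPM elsewhere. All 11 luminal markers were at least 2-fold above the highest other library. ESR1, the oestrogen receptor, was at 191.93 RPM and TFF1, an oestrogen-responsive secreted peptide, at 5105.90 RPM, and both had 0 reads in the other 5 libraries. TP63, a defining basal factor, had 0 reads in all 6, on an amplicon that reports only the transcripts that hold it. Of 5 immune markers, PTPRC, CD3E and LYZ were at 0 throughout, while CD68 (14.90 to 23.80 RPM) and CD14 (7.11 to 21.65 RPM) had reads in every library but WT replicate 1. Of 4 endothelial markers, VWF and CDH5 were at 0 throughout, and KDR and PECAM1 summed to 0.677 to 1.89 RPM in each library. WT replicate 1 was therefore kept out of the tests and is described by itself.

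**Figure D1:**
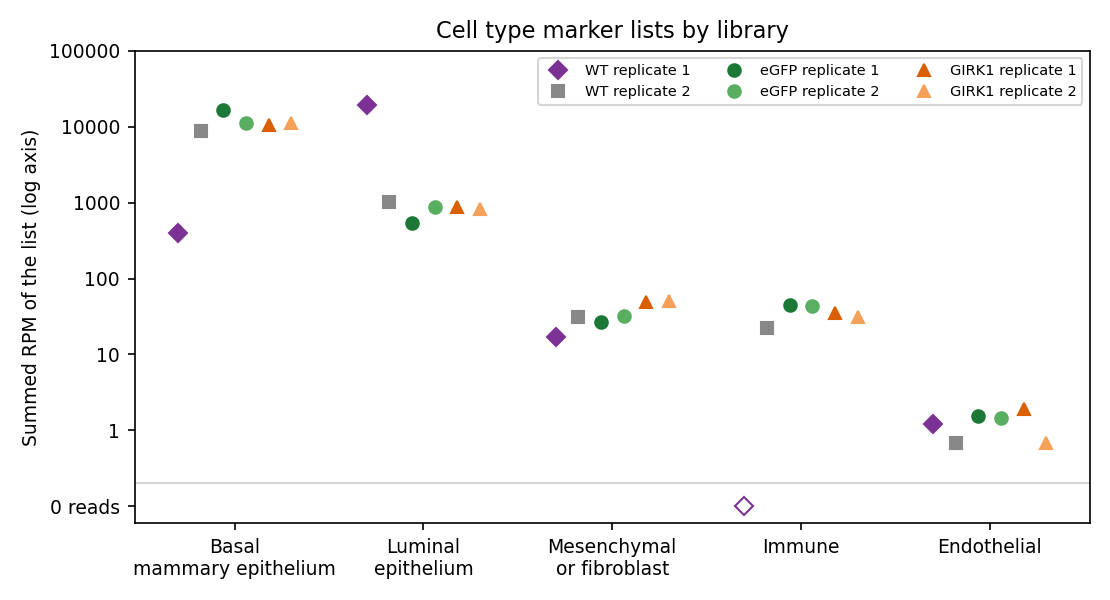
Summed RPM (log axis) of 5 marker lists for cell types in each of the 6 libraries, with open symbols for 0 reads. WT replicate 1 lies below the other libraries for the basal list (395 RPM) and above them for the luminal list (19220 RPM).

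All 7 genes lie on the minus strand of chromosome 19 (GRCh38, GENCODE annotation), in the cluster of kallikrein genes that runs 265.1 kb from KLK1 (first base 50819148) to KLK14 (last base 51084245). KLK5 covers chr19:50943303-50953093, KLK6 chr19:50958631-50969673 and KLK7 chr19:50976482-50984099. KLK8 follows at chr19:50996007-51002711, KLK10 at chr19:51012739-51020175, KLK11 at chr19:51022216-51028039 and KLK13 at chr19:51056206-51065114. The stretches upstream of KLK11, KLK6, KLK13 and KLK5 are printed here, and those of KLK7 and KLK10 are left out. The printed stretches come from RefSeq's 250-base windows before annotated starts (GRCh38.p14), cut to the longest piece without an annotated exon. They cover chr19:51027704-51027896 and chr19:51026617-51026866 for the 2 starts of KLK11, chr19:50969674-50969841 for KLK6, chr19:51065115-51065342 for KLK13 and chr19:50953094-50953288 for KLK5, all on the minus strand, 5′ to 3′. Capitals mark GGTCA, the half-site of the oestrogen response element, read on either strand.
KLK11, first start: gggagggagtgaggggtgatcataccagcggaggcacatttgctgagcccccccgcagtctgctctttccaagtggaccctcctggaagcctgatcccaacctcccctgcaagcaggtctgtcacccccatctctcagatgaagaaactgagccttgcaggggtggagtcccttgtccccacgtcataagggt
KLK11, second start: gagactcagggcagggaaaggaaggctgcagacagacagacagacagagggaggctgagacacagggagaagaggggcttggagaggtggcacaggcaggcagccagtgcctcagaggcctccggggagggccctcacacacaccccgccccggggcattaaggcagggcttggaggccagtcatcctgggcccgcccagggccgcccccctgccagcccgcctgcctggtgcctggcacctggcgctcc
KLK6: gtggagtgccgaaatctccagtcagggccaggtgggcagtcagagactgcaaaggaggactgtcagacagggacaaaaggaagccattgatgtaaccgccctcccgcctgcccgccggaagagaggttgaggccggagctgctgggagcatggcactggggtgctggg
KLK13: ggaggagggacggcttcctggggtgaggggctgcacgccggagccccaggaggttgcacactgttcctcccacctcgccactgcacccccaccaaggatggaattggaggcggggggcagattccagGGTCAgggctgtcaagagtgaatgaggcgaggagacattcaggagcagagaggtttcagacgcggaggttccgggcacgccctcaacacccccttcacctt
KLK5: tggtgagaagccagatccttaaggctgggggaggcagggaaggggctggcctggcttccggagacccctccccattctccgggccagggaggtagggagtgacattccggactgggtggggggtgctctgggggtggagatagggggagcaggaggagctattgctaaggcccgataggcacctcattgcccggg
GGTCA or its reverse complement TGACC stood in 32.6% of 35116 RefSeq windows of that length. Of the windows above, the one of KLK13 held it, starting 123 bases before the start, and those of KLK11, KLK6 and KLK5 did not. A second annotated start of KLK13, whose window is not printed, had the half-site at 42 and 117 bases before it. The Grainyhead site AACCGGTT, searched on both strands, was in none of them and in 0.117% of all windows.

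Among the 7 genes, KLK11 reached the highest level, and in 1 library. KLK11 (hippostasin), a trypsin-like protease, had 460 reads in WT replicate 1, or 183.551 RPM (exact 95% interval 167.2 to 201.1, counting error only), with 250 reads on the forward and 210 on the reverse strand. It had 1 read in WT replicate 2 and 0 reads in each eGFP and GIRK1 library. WT replicate 1 was thus at least 314-fold above eGFP replicate 1, at least 626-fold above eGFP replicate 2 and at least 680- and 633-fold above GIRK1 replicates 1 and 2. These bounds set the measured RPM against the limit of 3 reads in each library at 0 and leave out the counting error of WT replicate 1 itself. Against the single read of WT replicate 2 the ratio was 2944, with a counting interval from 525.8 to 116500. Only 4.51% of all genes had a higher RPM in WT replicate 1, where the median of genes with reads was 19.6 RPM. In bulk RNA, fewer cells of a type and less RNA per cell cannot be told apart.

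KLK6 and KLK13, both trypsin-like proteases, showed the same order at a far lower level. KLK6 (neurosin) had 11 reads (4.389 RPM, interval 2.191 to 7.854) in WT replicate 1, 1 read in GIRK1 replicate 1 and 0 reads in the other 4 libraries. Its measured RPM in WT replicate 1 was at least 7.50- to 23.5-fold above the limit of 3 reads in the libraries at 0, before the wide counting error of 11 reads. KLK13 had 9 reads (3.591 RPM, interval 1.642 to 6.817) in WT replicate 1, 2 reads in GIRK1 replicate 2 and 0 reads elsewhere, and its measured RPM in WT replicate 1 was at least 6.14- to 19.2-fold above that limit, before the counting error of 9 reads. The intervals of these ratios are wide where a library had 1 or 2 reads, 7.09 to 2098 for KLK6 against GIRK1 replicate 1 and 3.85 to 176.7 for KLK13 against GIRK1 replicate 2. KLK10, first described as a gene with reduced expression in breast tumour lines, had 2 reads in WT replicate 1 and 0 in every other library, so it was not detectable above the limit of 3 reads. In all, 3 of the 6 members with 3 or more reads in a library were at least 2-fold above the highest other library in WT replicate 1, beside 17.5% of the 13897 genes with 3 or more reads in any library. This is 1 library and carries no test.

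**Figure D2:**
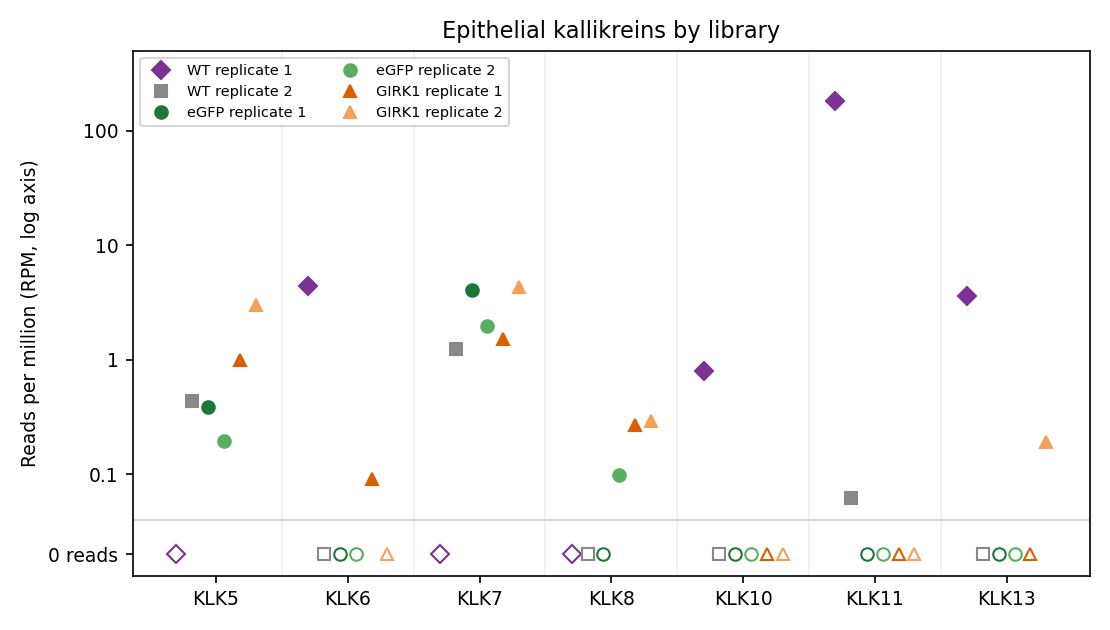
RPM (log axis) of the 7 kallikrein genes in each of the 6 libraries, with open symbols for 0 reads. KLK11 stands at 183.551 RPM in WT replicate 1 and at 0 or 1 read in the others, and KLK5 is highest in the 2 GIRK1 libraries.

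KLK5 and KLK7 had the opposite distribution, with reads in the 5 libraries that carried basal keratins and none in WT replicate 1. KLK5 is a trypsin-like protease that activates other kallikreins, KLK7 among them, and KLK7 is the chymotrypsin-like protease of cornified skin. At 0 reads the depth of WT replicate 1 allows up to 1.20 RPM. All 3 control libraries and GIRK1 replicate 1 held less KLK5 than that, so no difference between them and WT replicate 1 was detectable for KLK5. For KLK7, the counting intervals of WT replicate 2, eGFP replicate 2 and GIRK1 replicate 1 overlapped that of WT replicate 1 (0 to 1.472 RPM).

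GIRK1 libraries had more KLK5 reads than every control library, without passing the adjusted threshold. KLK5 was at 0.390 and 0.195 RPM in the eGFP libraries (2 reads each), at 0.436 RPM in WT replicate 2 (7 reads), and at 0.990 and 2.996 RPM in GIRK1 replicates 1 and 2 (11 and 31 reads). The groups did not overlap, but the counting interval of GIRK1 replicate 1 (0.494 to 1.772 RPM) overlapped those of WT replicate 2 (0.176 to 0.899) and both eGFP libraries. The interval of GIRK1 replicate 2 (2.036 to 4.253 RPM) lay above all others, that of its own replicate included. The means were 0.293 ± 0.138 RPM in eGFP and 1.99 ± 1.42 RPM in GIRK1 (SD, n = 2 each). The log2 fold change was 2.81 ± 0.90 (SE) against eGFP, with an adjusted p of 0.170 (edgeR, quasi-likelihood; Benjamini-Hochberg over the 11279 genes tested). Against eGFP and WT replicate 2 together it was 2.48 ± 0.69, with an edgeR adjusted p of 0.137 over 11389 genes. Without GIRK1 replicate 2, the KLK5 values in these comparisons were 1.77 and 1.48.

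KLK7 did not separate the groups. It was at 4.096 and 1.954 RPM in the eGFP libraries (21 and 20 reads), at 1.247 RPM in WT replicate 2 (20 reads), and at 1.531 and 4.349 RPM in GIRK1 replicates 1 and 2 (17 and 45 reads). The lowest and the highest of these GIRK1 and eGFP values were both GIRK1 libraries, and the counting intervals of the GIRK1 replicates, 0.892 to 2.451 and 3.172 to 5.82 RPM, did not overlap. The log2 fold change was −0.04 ± 0.68 (SE) against eGFP (edgeR adjusted p = 0.982) and 0.34 ± 0.67 against eGFP and WT replicate 2 (edgeR adjusted p = 0.823). GIRK1 replicate 2 thus held the most reads of both KLK5 and KLK7. Of its 45 KLK7 reads, 38 were on the forward strand, whereas its KLK5 reads divided into 16 forward and 15 reverse.

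**Figure D3:**
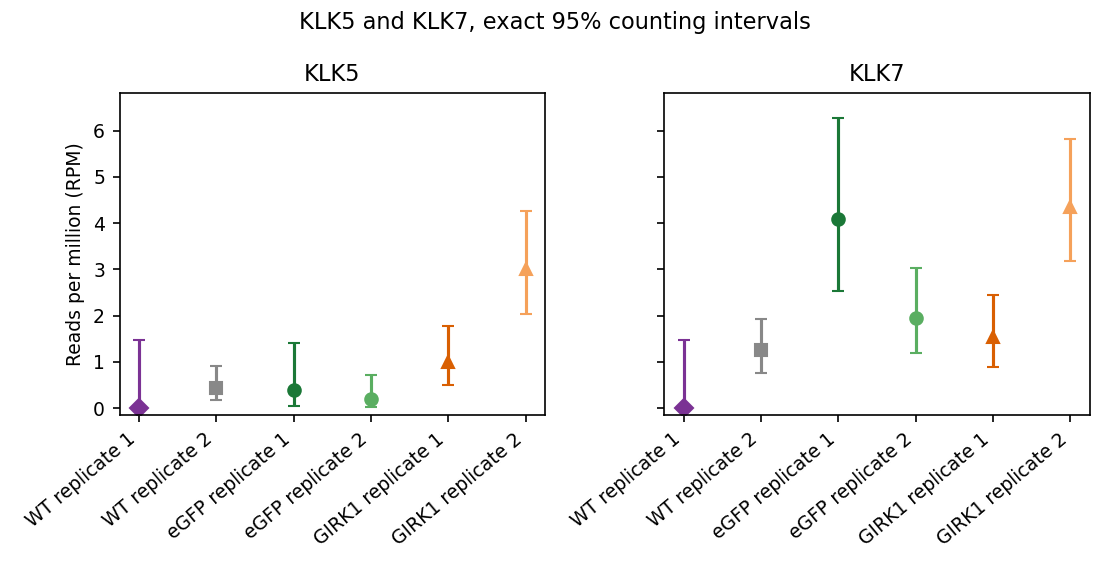
RPM of KLK5 and KLK7 in each library, with bars for the exact 95% counting interval. For KLK5 the 2 GIRK1 libraries, at 0.990 and 2.996 RPM, lie above the 3 controls, and for KLK7 they lie at 1.531 and 4.349 RPM, on both sides of most controls.

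KLK8 (neuropsin), a trypsin-like protease of skin and brain, had 3 reads in each GIRK1 library (0.270 and 0.290 RPM), 1 read in eGFP replicate 2 and 0 in the other 3 libraries. Those counts sit at the limit of 3 reads and were too few to be tested. KLK5 and KLK8 were thus the members higher in both GIRK1 libraries than in the 3 controls, and KLK5 was the only one of them among the tested genes, of which 21.6% had that order. With 2, 2 and 7 reads in the controls, KLK5 passed the filter on low counts through its GIRK1 reads, so its order was tied to its being tested and nothing is read from that share.

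Only KLK5 and KLK7 passed the filter on low counts in either fit, and 0 of the 2 were called, beside 1.52% of genes called against eGFP (88 higher, 84 lower) and 1.21% against eGFP and WT replicate 2 (91 higher, 47 lower). DESeq2 also called 0, but gave KLK5 no adjusted p against eGFP and WT replicate 2, so KLK5 could not be called there. At an unadjusted edgeR p below 0.05, KLK5 alone passed in each fit, as did 19.2% and 18.7% of all tested genes, under the same limit of the filter. By the study's own rule, which asks for mean RPM at least 2-fold apart and a coefficient of variation under 0.7 within both groups, 0 of the 7 genes were called, beside 6.29% of all genes against eGFP and 4.71% against eGFP and WT replicate 2. KLK5 missed this rule through the spread of the GIRK1 libraries. Its ratio of means was 6.81 and 5.86 in the 2 comparisons, and its coefficient of variation in GIRK1 was 0.712. Both comparisons share the GIRK1 and eGFP libraries.

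Summed over the 7 genes, the libraries held 192.3 RPM in WT replicate 1, 1.75 RPM in WT replicate 2, 4.49 and 2.25 RPM in eGFP and 2.88 and 7.83 RPM in GIRK1. KLK11 made up nearly all of the first sum, and KLK7 most of the sum in the eGFP libraries. The GIRK1 and eGFP sums overlapped.

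The other kallikrein genes were near or at 0. Of 10 further KLK-named genes counted, KLK1 (tissue kallikrein), KLK14 and KLKB1 (plasma kallikrein, on chromosome 4) reached 3 reads in a library, and none passed the filter. KLK1 had 1 and 14 reads in the WT libraries, 1 and 4 in eGFP and 7 and 14 in GIRK1, the last being 1.353 RPM. KLK14 had 7 reads in WT replicate 2 and 1 in WT replicate 1, and KLKB1 at most 3 in any library. KLK4 had 2 reads in each of WT replicate 1 and GIRK1 replicate 2. KLK2 and KLK3, the prostate kallikreins, and KLK9, KLK12, KLK15 and KLKP1 had 0 reads in all 6 libraries.

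Within 500000 bases of the cluster, 35 other genes were counted, of which 15 reached 3 reads in a library and 4 were at least 2-fold above all other libraries in WT replicate 1, beside 17.5% of all genes with 3 or more reads in a library. These 4 were SYT3 at 1.995 RPM, CTU1, the nearest neighbour on the KLK14 side, at 1.995 RPM, VSIG10L at 4.788 RPM and NKG7 at 1.197 RPM. The most abundant neighbours, EMC10 (74.22 RPM in WT replicate 1, 69.24 to 110.11 elsewhere) and ETFB (102.15 RPM, 68.82 to 100.06 elsewhere), had WT replicate 1 within or close to the range of the others. Of the neighbours, 8 were tested against eGFP, and 9 against eGFP and WT replicate 2, and 0 were called by edgeR in either. They were NR1H2, POLD1, FAM71E1, EMC10, JOSD2, VSIG10L, ETFB and ZNF175 in both fits and CTU1 in the second. POLD1, the catalytic subunit of a DNA polymerase, had the lowest log2 fold change, −1.09 ± 0.32 (edgeR adjusted p = 0.151), and FAM71E1 the highest, 1.23 ± 0.42 (edgeR adjusted p = 0.189), both against eGFP. POLD1 passed with no filter on low counts (edgeR adjusted p = 0.0395), with the replicate number as a block (edgeR adjusted p = 0.0397) and, like FAM71E1, without eGFP replicate 2. Among the neighbours with too few reads to be tested were NAPSA, NAPSB, SPIB, MYBPC2, ASPDH, LRRC4B, SYT3, C19orf81, SHANK1, CLEC11A, GPR32 and C19orf48 on the KLK1 side. On the KLK14 side these were SIGLEC9, SIGLEC7, CD33, SIGLECL1, IGLON5, CLDND2, NKG7, LIM2, SIGLEC10, SIGLEC8, CEACAM18, SIGLEC12 and SIGLEC6.

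**Figure D4:**
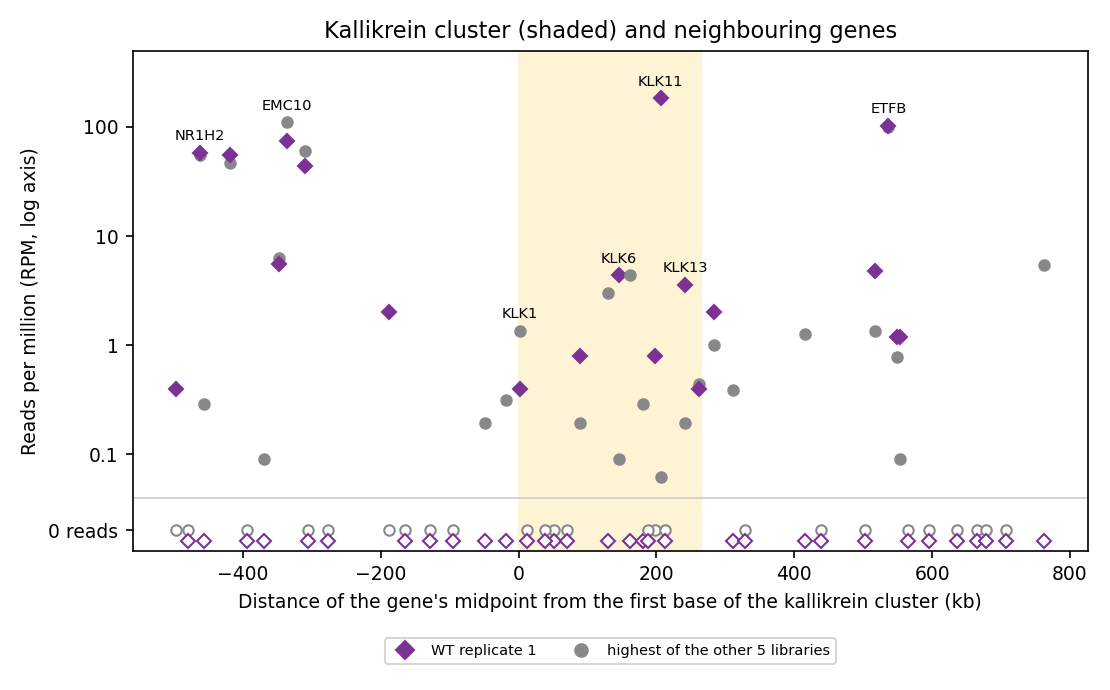
RPM (log axis) of each counted gene by the distance of its midpoint (kb) from the first base of the kallikrein cluster, which is shaded, in WT replicate 1 and as the highest of the other 5 libraries; open symbols, slightly offset, are 0 reads. KLK11 rises to 183.551 RPM in WT replicate 1 alone, while EMC10 and ETFB are near 100 RPM on both scales.

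Over the 6 libraries, the genes most like KLK11, the only member with a mean of at least 50 reads, were ESR1, TFF3, TMEM30B, AGR3 and ADAMTS19. Their root mean square distance from the centred KLK11 profile, in log2(CPM + 1) over 6 libraries, was 0.0444, 0.0540, 0.0660, 0.0877 and 0.103. ESR1 and TFF3, a secreted trefoil peptide, were at 191.93 and 167.19 RPM in WT replicate 1 and at 0 in WT replicate 2 and both eGFP libraries. Likeness here rests on a single library.

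Among the genes that work with the kallikreins, 1 passed the adjusted threshold in either comparison. Of 14 protease inhibitors, 8 were tested, and 0 rose and 0 fell in either fit, with a median log2 fold change of 0.04 against eGFP, beside 0.01 over all tested genes. SPINT2, an inhibitor of trypsin-like surface proteases, was the most abundant, at 791.26 RPM in WT replicate 1 and 505.10 to 680.52 RPM in the others. SPINK5, whose product inhibits KLK5 and KLK7, was named after its values were seen. It was at 0 and 2.556 RPM in the WT libraries, 3.121 and 4.006 RPM in eGFP and 8.913 and 7.635 RPM in GIRK1, which lay above all controls. Its log2 fold change was 1.16 ± 0.35 against eGFP (edgeR adjusted p = 0.157) and 1.35 ± 0.32 against eGFP and WT replicate 2 (edgeR adjusted p = 0.106), so SPINK5, like KLK5, did not pass. With DESeq2 (adjusted p = 0.0207) or without eGFP replicate 1 (edgeR adjusted p = 0.0337) SPINK5 passed in the second comparison.

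Of 13 serine proteases of the same cascades, 5 were tested and 0 called in either fit, with a median log2 fold change of −0.32 against eGFP. All 5 values against eGFP were negative, as were 5518 of those of the 11279 genes tested. Of the 5, ST14 was at −0.19 ± 0.27, PRSS8 at −0.18 ± 0.21 and FURIN at −0.32 ± 0.25 (SE). PLAT and PLAU, named after their values were seen, were lower in both GIRK1 libraries than in the 3 controls. The share of all tested genes with that order is not given here, so nothing is read from it. Their log2 fold changes against eGFP were −2.69 ± 0.72 (edgeR adjusted p = 0.129) and −2.28 ± 0.56 (edgeR adjusted p = 0.111), so neither passed. PRSS8 (prostasin), a membrane-anchored protease, was the most abundant, at 280.51 RPM in WT replicate 1 and 176.00 to 221.38 RPM in the others. TMPRSS4, a membrane protease named after its values were seen, was at 28.73 RPM in WT replicate 1 and at 0 in the other 5 libraries, as KLK11 nearly was. In WT replicate 1, 3 of the 9 proteases with 3 or more reads in a library were at least 2-fold above every other library. The share was 17.5% among all genes with as many reads. PLAU and PLAT went the other way, at 0.399 and 1.197 RPM there and at least 6.28 and 12.18 RPM elsewhere.

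Among 13 substrates and receptors of the family, 8 were tested, 1 fell and 0 rose against eGFP, with a median of −0.30. The one that fell was IL1B, an inflammatory cytokine cut from a precursor, at 190.37 and 99.38 RPM in eGFP, 17.08 RPM in WT replicate 2 and 4.502 and 3.769 RPM in GIRK1. GIRK1 lay below all 3 controls, with a log2 fold change of −5.18 ± 0.43 against eGFP (edgeR adjusted p = 0.00453) and −4.67 ± 1.04 against eGFP and WT replicate 2 (edgeR adjusted p = 0.0907), where 0 of the 8 passed by edgeR and IL1B passed by DESeq2 (adjusted p = 0.00140), and by edgeR with no filter (adjusted p = 0.0175), without eGFP replicate 1 (log2 fold change −3.78, adjusted p = 0.0148) and under a replicate block (adjusted p = 0.0298). Without eGFP replicate 1, the IL1B value against eGFP was −4.57. CASP14, named after its values were seen, was at 267.80 and 16.22 RPM in eGFP and at 3.928 RPM in WT replicate 2. It had 1 and 0 reads in GIRK1 replicates 1 and 2, so the size of its fitted log2 fold change, −11.29 against eGFP, is uncertain. CASP14 did not pass against eGFP (edgeR adjusted p = 0.0575) or against eGFP and WT replicate 2 (edgeR adjusted p = 0.139). DSG1 and DSC1, the desmosomal cadherins that KLK5 and KLK7 cut in skin, and FLG and FLG2, proteins of the cornified layer, had 0 reads in all 6 libraries. F2RL1, the receptor PAR2 that trypsin-like kallikreins can activate, was at 28.18 RPM in WT replicate 2, 26.14 and 26.09 RPM in eGFP and 29.62 and 28.90 RPM in GIRK1, and at 1.995 RPM in WT replicate 1. GRN, a growth factor precursor, was at 240.89 to 364.08 RPM in all 6 libraries.

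Of 15 epidermal transcription factors, 11 were tested and 0 called in either fit, with a median of 0.44 against eGFP and 0.46 against eGFP and WT replicate 2. KLF4, a factor of epithelial differentiation, had the highest mean over the 6 libraries, at 219.06 RPM in WT replicate 1 and 25.94 to 54.22 RPM in the others. In each of those 5, NOTCH1 was higher than KLF4, at 30.43 to 72.30 RPM. In WT replicate 1, 8 of the 14 with 3 or more reads in a library were at least 2-fold above every other library, beside 17.5% of all genes with as many, namely GRHL1, GRHL2, GRHL3, KLF4, OVOL1, ELF3, CEBPA and NOTCH3. GRHL2, a Grainyhead factor of epithelial cells, was at 103.75 RPM there and at 0 reads in the other 5. By measured RPM, EHF, PRDM1, NOTCH1 and CEBPB went the other way, below each of the other 5. NOTCH1 was at 17.96 RPM in WT replicate 1, and CEBPB at 3.99 RPM against 7.25 to 22.78 RPM. EHF and PRDM1 had 0 reads there, against 0.58 to 5.61 and 2.79 to 14.24 RPM. For EHF, part of that range lies under the 1.20 RPM that 0 reads allow.

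**Figure D5:**
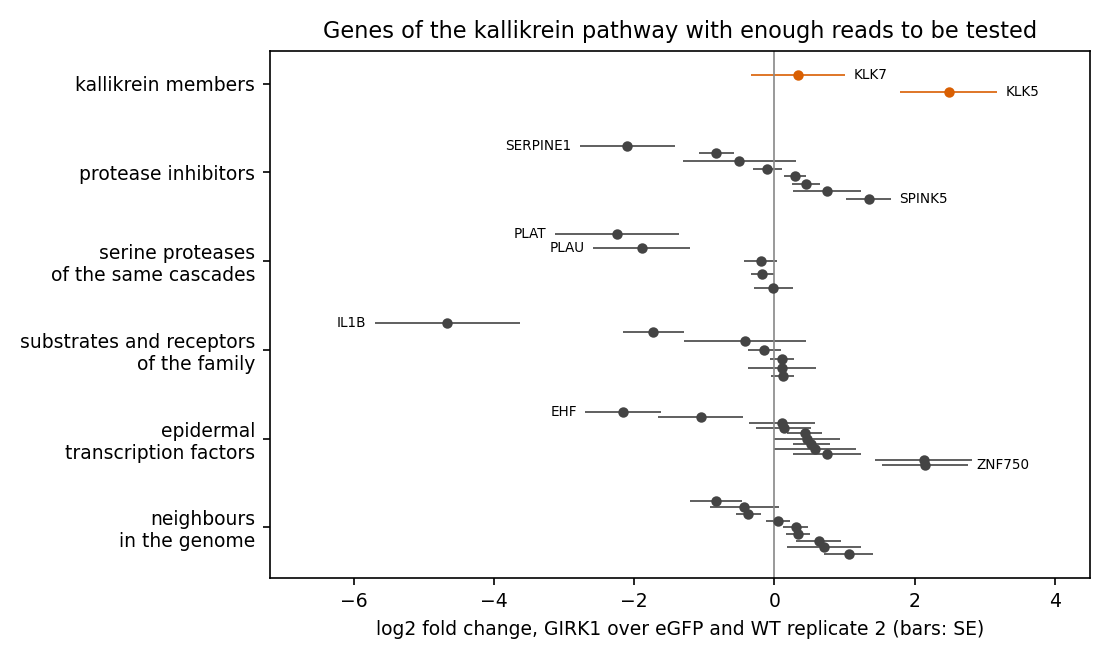
log2 fold change of GIRK1 over eGFP and WT replicate 2 (bars, SE) for the tested kallikreins, protease inhibitors, serine proteases, substrates and receptors, epidermal transcription factors and neighbours of the cluster, with CASP14 left out since it had at most 1 read in the GIRK1 libraries. KLK5 lies at 2.48 and SPINK5 at 1.35, and no gene plotted passed the adjusted threshold. CASP14, not plotted, had a fitted value of −10.75 and did not pass either (edgeR adjusted p = 0.139).

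Markers of cell type also moved between GIRK1 and controls. Of the 8 basal markers tested, KRT17 rose (log2 fold change 2.17 ± 0.22 against eGFP, edgeR adjusted p = 0.0104). LAMB3, a laminin chain of the basement membrane, fell (−2.81 ± 0.21, edgeR adjusted p = 0.00380). Both passed in the second fit as well, at 1.87 ± 0.27 (edgeR adjusted p = 0.0278) and −2.50 ± 0.41 (edgeR adjusted p = 0.0442). Neither passed there without eGFP replicate 2 (edgeR adjusted p = 0.172 and 0.185) or without either GIRK1 library. In those 3 settings the log2 fold changes were 1.73 to 2.01 for KRT17 and −2.52 to −2.34 for LAMB3. The summed basal level was 10600 and 11200 RPM in GIRK1 and 8845 to 16590 RPM in the 3 controls. Of 3 mesenchymal markers tested, DCN (decorin) rose against eGFP, at 27.01 and 25.23 RPM in GIRK1, 0.780 and 3.713 RPM in eGFP and 10.22 RPM in WT replicate 2 (edgeR adjusted p = 0.0371). Its log2 fold change was 3.37 against eGFP and 2.29 against eGFP and WT replicate 2, where it did not pass (edgeR adjusted p = 0.145) except by DESeq2 (adjusted p = 0.0185) or without eGFP replicate 1 (log2 fold change 1.87, edgeR adjusted p = 0.0161) or WT replicate 2. Without eGFP replicate 2, the value against eGFP was 4.94. Of the 8 mesenchymal markers listed, COL1A2 and PDGFRA had 0 reads in all 6 libraries, TWIST1 was at 15.80 to 23.55 RPM in every library but WT replicate 1 and COL1A1 at 2.81 to 15.56 RPM in all 6, and neither passed. The list summed to 48.53 and 49.87 RPM in GIRK1 against 26.53 to 32.15 RPM in the controls, with DCN its most abundant gene in GIRK1. No luminal, immune or endothelial marker passed in either fit. The part of these differences in the KLK5 values was not tested.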

How the data were processed

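RNA of 6 libraries labelled MCF10A was sequenced after amplification with the Ion AmpliSeq Transcriptome kit, 1 amplicon per gene. The authors mapped the reads to an amplicon reference with the Ion Torrent workflow and deposited, per amplicon, read counts (in all and per strand) and RPM, the reads per 1000000 reads on amplicons. PCR reads without molecular identifiers are not independent molecules. Genome build, workflow version and filters are not given in the sources used here. An amplicon reports only transcripts that hold it, and its efficiency differs between genes, so levels of different genes are compared only roughly.

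Counts were tested with edgeR 4.0.16 in R 4.3.3 (quasi-likelihood test, TMM, filterByExpr, Benjamini-Hochberg over all genes tested, threshold 0.05), with GIRK1 set against eGFP (4 libraries) and against eGFP plus WT replicate 2 (5 libraries). The code was tested on simulated data. DESeq2 1.42.0 served as an alternative. Groups followed the genotype labels. Intervals are exact binomial (Clopper-Pearson) 95% intervals covering counting error only; 3 reads were taken as the limit of a 0. The 19 rows with names starting in ERCC, 11447 reads over all libraries, were not removed. They stayed in the read totals and went through the same filter as every other row. The kallikreins, the other gene lists and the tests were chosen with earlier results of these data known. Named genes were all KLK genes, the genes near their cluster and list genes with an adjusted p below 0.05. The most abundant gene of each list and the 5 genes most like KLK11 were also named. SPINK5, TMPRSS4, PLAT, PLAU, CASP14, F2RL1, NOTCH1, DSG1, DSC1, FLG, FLG2 and GRHL2 were named after their values were seen. So were the other transcription factors given as high or low in WT replicate 1. Other marker genes came from the cell type lists. Sequences came from RefSeq (GRCh38.p14), which here matched 6 of the 7 kallikreins.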

Additional observations from a re-analysis of the deposited data

How the results depend on the processing

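The number of kallikreins called was 0 in both comparisons under every normalization, filter, test and left-out library tried, and under the study's 2-fold rule, added after the data were seen. KLK5 could not be tested with at least 10 reads required in every library, and DESeq2 gave it no adjusted p in the second comparison. Its log2 fold change stayed between 2.78 and 2.85 against eGFP and between 2.48 and 2.70 against eGFP and WT replicate 2 under the other settings. It ranged from 1.77 to 3.39 and from 1.48 to 3.09 when 1 library was left out, lowest without GIRK1 replicate 2, with an adjusted p never below 0.0645. For KLK7 the direction turned against eGFP with total reads (0.0086), without eGFP replicate 1 (0.59) and without GIRK1 replicate 1 (0.52), over a range of −1.01 to 0.59. Against eGFP and WT replicate 2 it turned without WT replicate 2 (−0.04) and without GIRK1 replicate 2 (−0.64), over a range of −0.64 to 0.92. The cause was not tested. IL1B, KRT17, LAMB3 and DCN kept their direction throughout and, against eGFP, their calls under every setting in which they were tested but that with all 6 libraries (adjusted p from 0.905 to 0.958).

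Of all genes, 172 were called against eGFP, 881 with no filter (321 higher, 560 lower), 111 with at least 10 reads in every library, 694 by DESeq2 (241 higher, 453 lower), 0 with all 6 libraries and 89 to 2933 with 1 library left out (fewest without GIRK1 replicate 2, most without eGFP replicate 2). Against eGFP and WT replicate 2, 91 genes were called higher and 47 lower, and the total was 374 with no filter (182 higher, 192 lower), 806 by DESeq2 (339 higher, 467 lower), 7 with WT replicate 1 as a control and 19 to 984 with 1 library left out (fewest without GIRK1 replicate 2, most without eGFP replicate 1). With a replicate block, the pairing by number gave 0 kallikreins, an adjusted p for KLK5 of 0.113 and 0.0687, and 590 (217 higher, 373 lower) and 558 (232 higher, 326 lower) calls; deviations of same-numbered libraries correlated by 0.197 (eGFP and GIRK1), 0.109 (eGFP and WT) and 0.0292 (GIRK1 and WT) across 9212 genes, and since 1 of these was below 0.1 the number was not taken to pair the libraries, and a shared factor by number was not tested.

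With under 50 reads for every kallikrein but KLK11, counting error limits each value. The GIRK1 libraries carry a name tag that the other 4 lack, and a sequencing run, should the tag mark one, cannot be told apart from the condition.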
